A study of Homo sapiens with 6 samples.

Results

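The genes that encode histones, the proteins that package DNA into nucleosomes, were followed in poly-A RNA-seq libraries of U251, an established human glioblastoma cell line. Members were chosen by name. The clustered class holds all protein-coding genes whose older symbol begins with HIST1, HIST2, HIST3 or HIST4. The variant class holds 10 genes, of which H2AFX, H2AFZ, H2AFV, H2AFY, H2AFY2, H2AFJ, H3F3A, H3F3B and H1FX are described singly. The rule gave 81 genes in GENCODE 29, 71 clustered and 10 variant. Of these, 46 had an identifier in the table of 57773 genes, 36 clustered and 10 variant. The other 35 clustered genes (8 H2A, 8 H2B, 8 H3 and 11 H4 genes) carry other identifiers, so their levels were not analysed here.

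The PD-L1 group was infected with a lentivirus for PD-L1 and the Vector group with its control virus, and both were kept as stable lines at passage 5 to 10 in DMEM with 10% FBS, and RNA was taken 12 h after a passage. PD-L1, the product of CD274, binds the receptor PD-1 on T cells. Each line gave 3 dishes, labelled CD274_1 to CD274_3 and Vec_1 to Vec_3. Since the dishes of a group are 1 stable line, a p-value speaks only to the variation among dishes. The question taken up here was what a poly-T selected library shows of histone genes, and whether either class differed between the lines.

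Most histone proteins are made in S phase from genes that lie in clusters, lack introns and give mRNAs without a poly-A tail. These mRNAs end in a short stem-loop that is bound by SLBP and cut by a complex around the U7 small nuclear RNA. Variant histones are encoded mostly by single genes with ordinary polyadenylated mRNAs and are made throughout the cell cycle. Selection on poly-T beads therefore keeps variant mRNAs and, of the clustered genes, mainly the polyadenylated transcripts that some of them also make. In bulk RNA, a lower level may mean fewer transcripts per cell or fewer cells that make them.

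Total counts per dish ran from 15678989 to 22270509, and 3 reads equal 0.138 to 0.185 CPM (read counts scaled to a common library size with TMM factors). CD274 held 1310, 1360 and 1230 CPM in PD-L1 dishes 1 to 3 and 1.56, 3.47 and 2.21 CPM in the Vector dishes 1 to 3. PD-L1 dish 3 stood apart from the other PD-L1 dishes, with a chi-square per degree of freedom of 15.02 and 16.15 against them, where the remaining within-group pairs gave 3.04 to 10.04. Results are therefore also given without it. The glial and progenitor markers were all detected, with a sum of 320 to 418 CPM in the PD-L1 dishes and 550 to 637 CPM in the Vector dishes. Of the 6, GFAP, VIM, NES, SOX2 and SOX9 (5 genes) were called lower in PD-L1, at an edgeR adjusted p under 0.05. Over all tested genes, 8.75% were called in either direction. Summed markers of other lineages were lower: 9.9 to 12 CPM for neurons (mostly SYT1), 5.03 to 9.29 CPM for oligodendrocytes (mostly MBP), 2.21 to 2.69 CPM for epithelium, 1.47 to 2.84 CPM for endothelium and 0.268 to 1.24 CPM for microglia and leukocytes. MBP and AIF1 were called lower in PD-L1, with log2 fold changes of -0.59 and -2.92 and edgeR adjusted p of 0.0204 and 0.00919. CD68 and MOG had 1 read in all dishes together. The part of these marker differences in the histone values was not tested.

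The stem-loop that marks the end of a replication-dependent histone mRNA was searched for in every GENCODE 29 transcript. Its forms are shown because mRNAs that end in it carry no poly-A tail. A stem-loop in a gene's model does not by itself mean that poly-T selection left its reads out. Capitals mark the 6-base arms and lower case the 4-base loop, on the transcript's strand.
HIST3H2A, with 10 other matched clustered genes: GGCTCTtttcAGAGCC
HIST1H2BD, with 2 others: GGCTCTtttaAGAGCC
HIST4H4, with 2 others: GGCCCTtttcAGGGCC
HIST1H2AG, the only 1 of its form: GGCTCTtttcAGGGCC
H2AFX, the only variant gene with a stem-loop: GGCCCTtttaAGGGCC
A stem-loop was present in 18 of the 36 matched clustered genes and in 1 of the 10 variant genes. Over all 58676 genes with a transcript it was present in 42, or 0.0716%. The other 18 clustered models had none, and 14 of those models were under 700 bases long, so that many of them may stop short of it. In 12 of the 18 clustered genes with a stem-loop, the longest model ran at least 100 bases past it, as a transcript cleaved and polyadenylated further downstream would. H2AFX also runs on, for 1044 bases.

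Promoter motifs were counted in both classes, with no test between them. Windows from 250 bases before to 50 bases after the start (RefSeq, GRCh38.p14) were matched for 66 clustered and 9 variant genes and searched on both strands. The 66 include clustered genes without an identifier in the count table, so they are not the set whose levels are given. A gene counted as holding a motif if any of its windows did, so genes with several starts had more chances. The TATA box TATAAA was found in 68.2% of clustered and 44.4% of variant genes, against 14% of all 27305 genes with windows. The CCAAT box CCAAT was found in 84.8%, 77.8% and 39.7%. The octamer ATTTGCAT, the sequence bound by the POU2F1 protein, was found in 39.4%, 11.1% and 2.19%. Within the clustered class it was found in 77.8% of H2B, 68.8% of H2A and 7.69% of H3 genes, and in none of the 6 H1 and 13 H4 genes. These are matches of letters and not tested sites. No motif of the 3 contains another. The last 150 bases before the start are given for the clustered gene with the highest level (HIST1H2BK), a second H2B gene at a far lower level (HIST1H2BJ), a linker histone gene (HIST1H1C) and a variant gene (H2AFZ). Capitals mark the motifs on either strand, all 4 genes lying on the minus strand.
HIST1H2BK, chr6:27146859-27147008: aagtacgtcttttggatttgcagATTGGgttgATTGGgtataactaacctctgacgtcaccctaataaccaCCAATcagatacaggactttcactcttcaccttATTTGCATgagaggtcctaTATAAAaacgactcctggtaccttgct
HIST1H2BJ, chr6:27132796-27132945: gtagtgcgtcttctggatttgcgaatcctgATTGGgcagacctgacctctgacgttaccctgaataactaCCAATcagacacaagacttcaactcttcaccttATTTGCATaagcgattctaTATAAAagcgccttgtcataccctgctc
HIST1H1C, chr6:26056471-26056620: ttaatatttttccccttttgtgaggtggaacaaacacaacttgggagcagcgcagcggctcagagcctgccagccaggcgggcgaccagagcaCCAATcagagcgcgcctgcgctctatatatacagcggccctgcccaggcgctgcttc
H2AFZ, chr4:99950276-99950425: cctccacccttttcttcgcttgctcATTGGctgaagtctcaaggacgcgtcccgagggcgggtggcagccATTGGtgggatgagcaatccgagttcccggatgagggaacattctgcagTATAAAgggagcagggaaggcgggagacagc
Both H2B promoters carry the octamer, the TATA box and CCAAT boxes, the HIST1H1C window a single CCAAT box, and the H2AFZ window a TATA box with CCAAT boxes on the other strand.

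Summed and median levels of the classes lay far apart, while levels of single genes overlapped. The 10 variant genes together held 2790, 2760 and 3080 CPM in PD-L1 dishes 1 to 3 and 3050, 3040 and 2920 CPM in the Vector dishes 1 to 3. The 36 clustered genes together held 153, 137 and 142 CPM and 128, 153 and 143 CPM. The clustered sum was thus 4.21% to 5.50% of the variant sum in every dish. It covers only 36 of the 71 clustered genes, while the variant sum covers all 10 variant genes. Per kilobase of exon, the variant genes had a median of 105 CPM (5.37 to 178) and the clustered genes a median of 0.34 CPM (0 to 203). HIST1H2BK, at 203 CPM, lay above every variant gene. Within the clustered class the median was 0.45 CPM for models that ran at least 100 bases past a stem-loop. It was 0.778 CPM for models that ended sooner after it and 0.273 CPM for models without a stem-loop. Exon lengths come from GENCODE 29, and the annotation behind the counts is not given in the sources used here, so levels per length are approximate.

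**Figure D1:**
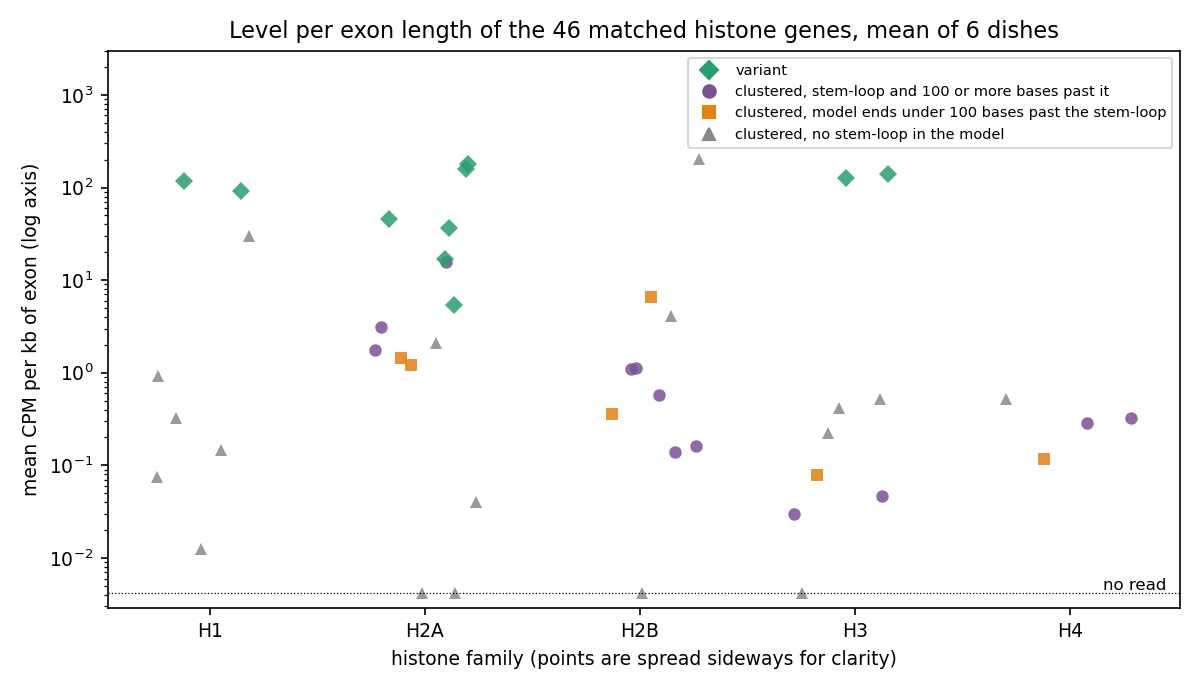
Mean CPM per kilobase of exon over the 6 dishes (log axis) for each of the 46 matched histone genes, by family; the symbol gives the class and, for clustered genes, whether the annotated model holds the stem-loop and runs past it. Variant genes lie between 5.37 and 178, and most clustered genes lie under 1, with HIST1H2BK at 203 and HIST1H1C at 29.9 above the rest of their class. The models of HIST1H2BK and HIST1H1C are only 381 and 642 bases long, and a longer model behind the counts would lower both values.

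The clustered signal came from few genes. HIST1H2BK, HIST1H1C and HIST3H2A together made up 75.7% to 79.4% of the clustered sum, and HIST1H2BK alone 52.3% to 55.6%. By family, the clustered H2B genes held 82.5 to 104 CPM, H2A genes 23.3 to 27.4 CPM and H1 genes 17.3 to 23.3 CPM. The clustered H3 genes reached only 0.431 to 1.12 CPM and H4 genes 1.28 to 2.30 CPM, from 8 to 23 and from 24 to 47 reads per dish. These sums cover 10 of 18 H2B, 9 of 17 H2A, 6 of 6 H1, 7 of 15 H3 and 4 of 15 H4 genes. None of the 50-base runs of HIST1H3D, HIST2H3A and HIST2H3C is unique to its gene, and 18.8% are for HIST1H4J. Such counts depend on how reads with several matches were treated. Core histones are used in equal numbers in a nucleosome, and how much of each mRNA the cells held without a poly-A tail was not measured here. No read was seen for HIST1H2AA, HIST1H2AD, HIST1H2BA and HIST2H3PS2, which allows up to 3 reads, or 0.138 to 0.185 CPM, in a dish. Of the 50-base runs, only 2.0% for HIST1H2AD and 0% for HIST2H3PS2 occur in no other gene. Reads of both may thus have been dropped or given to other genes. A further 16 clustered genes had reads but too few to test, with at most 52 reads over all dishes.

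The most abundant clustered genes belong to the linker histone and the H2A and H2B families. HIST1H1C (H1-2, ENSG00000187837), a linker histone gene on chromosome 6, held 18.2, 16.5 and 22.5 CPM in PD-L1 dishes 1 to 3 and 18.5, 20.8 and 18.9 CPM in the Vector dishes 1 to 3. The highest and the lowest dish were both PD-L1 dishes, so the groups overlapped. HIST3H2A (H2AC25, ENSG00000181218), an H2A gene of a small cluster on chromosome 1, held 14.2, 11.9 and 15.8 CPM against 13.7, 14.5 and 13.5 CPM in Vector. Its Vector values fell inside the PD-L1 range.

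HIST1H2AC (H2AC6, ENSG00000180573), with a model that runs 1128 bases past its stem-loop, held 6, 4.56 and 5.19 CPM in the PD-L1 dishes and 5.29, 5.92 and 4.47 CPM in the Vector dishes. The means were 5.25 ± 0.723 and 5.23 ± 0.726 CPM (SD, n = 3 each), with full overlap. HIST1H2AG (H2AC11, ENSG00000196787) held 4.54, 4.74 and 3.80 CPM against 3.08, 4.40 and 3.18 CPM. Vector dish 2 lay inside the PD-L1 range and the other Vector dishes below it.

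HIST1H2BK (H2BC12, ENSG00000197903) encodes an H2B protein and held 83.8, 76.2 and 74.4 CPM in the PD-L1 dishes and 67.1, 83.5 and 79.7 CPM in the Vector dishes. Vector dish 1 was the lowest and the ranges overlapped. Its GENCODE 29 model is 381 bases long, coding sequence alone, and only 25.9% of its 50-base runs occur in no other gene, so its count may leave out or share reads with copies such as H2BFS. HIST1H2BJ (H2BC11, ENSG00000124635), whose promoter is shown above, held 4.59, 4.31 and 4.02 CPM against 3.36, 4.79 and 2.58 CPM. As for HIST1H2AG, Vector dish 2 was the highest of its group; the 2 genes are transcribed in opposite directions from 1 promoter region. HIST1H2BD (H2BC5, ENSG00000158373) held 6.54, 4.99 and 4.77 CPM against 5.48, 5.87 and 6.84 CPM, with overlapping groups.

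HIST1H2BN (H2BC15, ENSG00000233822) held 3.66, 4.13 and 3.32 CPM in the PD-L1 dishes and 2.90, 2.05 and 2.91 CPM in the Vector dishes. Each PD-L1 dish was above each Vector dish. Its exons overlap HIST1H2AL on the same strand and HIST1H2AK on the other, and with an unstranded kit the reads cannot be given to 1 of them with certainty.

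The remaining genes known to give polyadenylated transcripts had lower levels. HIST2H2BE (H2BC21, ENSG00000184678), an H2B gene of chromosome 1, held 2.83, 2.71 and 1.93 CPM in the PD-L1 dishes and 1.89, 2.30 and 3.28 CPM in the Vector dishes. HIST1H2BC (H2BC4, ENSG00000180596), another H2B gene, held 1.27, 0.555 and 0.857 CPM against 0.966, 0.880 and 0.969 CPM. HIST4H4 (H4C16, ENSG00000197837), a lone H4 gene on chromosome 12, held 0.927, 0.739 and 0.589 CPM against 0.598, 1.03 and 0.538 CPM. All 3 overlapped between the groups. All 8 genes of this list are among the 16 clustered genes with enough reads to test. The list was chosen with earlier results of these data known, so this overlap is a description only.

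**Figure D2:**
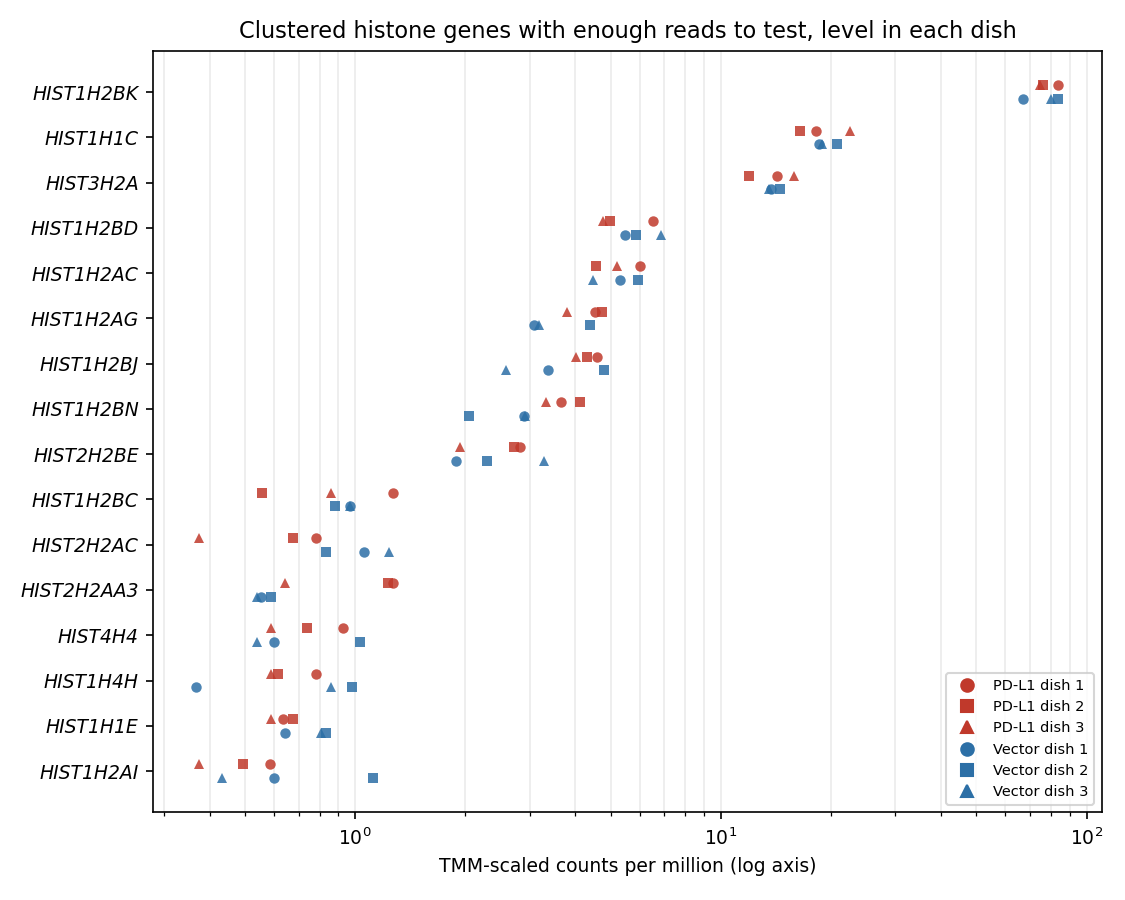
CPM (log axis) of the 16 clustered histone genes with enough reads to test, 1 point per dish, PD-L1 in red and Vector in blue, the symbol giving the dish number. HIST1H2BK lies at 67.1 to 83.8 CPM, the 7 lowest genes near 1 CPM, and the groups overlap in 13 of the 16 genes.

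Among the variants, both genes for the replacement histone of the H3 family were the most abundant. They encode the same protein, which is placed in chromatin outside replication, by HIRA in active genes and by ATRX with DAXX in heterochromatin. H3F3B (H3-3B, ENSG00000132475, chromosome 17) held 779, 768 and 869 CPM in PD-L1 dishes 1 to 3 and 949, 938 and 886 CPM in the Vector dishes 1 to 3. Every PD-L1 dish was below every Vector dish, PD-L1 dish 3 by the smallest distance. H3F3A (H3-3A, ENSG00000163041, chromosome 1) held 422, 401 and 431 CPM against 372, 389 and 384 CPM. Here every PD-L1 dish was above every Vector dish. The 2 genes thus lay apart in opposite directions, and the ratio of H3F3B to H3F3A was 1.85, 1.92 and 2.02 in PD-L1 and 2.55, 2.41 and 2.30 in Vector dishes. This ratio was chosen after the values were seen and is a description. Their sum was 1220 ± 68 CPM in the PD-L1 dishes and 1310 ± 31.1 CPM in the Vector dishes. H3F3A shares sequence with the pseudogene H3F3AP4, so part of either count may belong to the other. H3F3AP4 itself was listed at 99 to 110 CPM in the PD-L1 dishes and 86.1 to 101 CPM in the Vector dishes. Exons of H3F3B overlap UNK on the opposite strand, and those of H3F3A overlap AL512343.2 there. An unstranded library cannot tell such reads apart.

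The H2A variants came next. H2AFZ (H2AZ1, ENSG00000164032) and H2AFV (H2AZ2, ENSG00000105968) encode the forms of H2A.Z, found at promoters and enhancers. H2AFZ held 365, 343 and 412 CPM in the PD-L1 dishes and 334, 385 and 336 CPM in the Vector dishes, which overlapped. H2AFV held 197, 198 and 219 CPM against 244, 230 and 214 CPM, with PD-L1 dish 3 inside the Vector range and the other PD-L1 dishes below it. H2AFX (H2AX, ENSG00000188486), whose protein is phosphorylated at DNA breaks, held 249, 258 and 304 CPM against 314, 303 and 294 CPM. Again PD-L1 dish 3 lay among the Vector dishes and the others below.

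The macroH2A genes, whose products carry a large extra domain and are found in silent chromatin, varied little. H2AFY (MACROH2A1, ENSG00000113648) held 295, 307 and 301 CPM in the PD-L1 dishes and 296, 312 and 290 CPM in the Vector dishes. H2AFY2 (MACROH2A2, ENSG00000099284) held 69, 73.3 and 71.8 CPM against 77.5, 76.3 and 71.9 CPM. The groups overlapped for both, for H2AFY2 only through PD-L1 dish 2 and Vector dish 3. H2AFJ (H2AJ, ENSG00000246705), an H2A variant gene, was the lowest at 18.3, 15.2 and 20.1 CPM against 18.7, 18.6 and 17.3 CPM.

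H1FX (H1-10, ENSG00000184897), a linker histone variant gene, held 122, 124 and 154 CPM in the PD-L1 dishes and 158, 131 and 142 CPM in the Vector dishes. The groups overlapped, with PD-L1 dish 3 inside the Vector range. H1FX shares exonic bases with its antisense gene H1FX-AS1, whose reads an unstranded library cannot tell from it. In 8 of the 10 variant genes PD-L1 dish 3 was the highest PD-L1 dish, against 41.8% of all tested genes, while in 11 of the 16 tested clustered genes it was PD-L1 dish 1, against 27.2%.

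**Figure D3:**
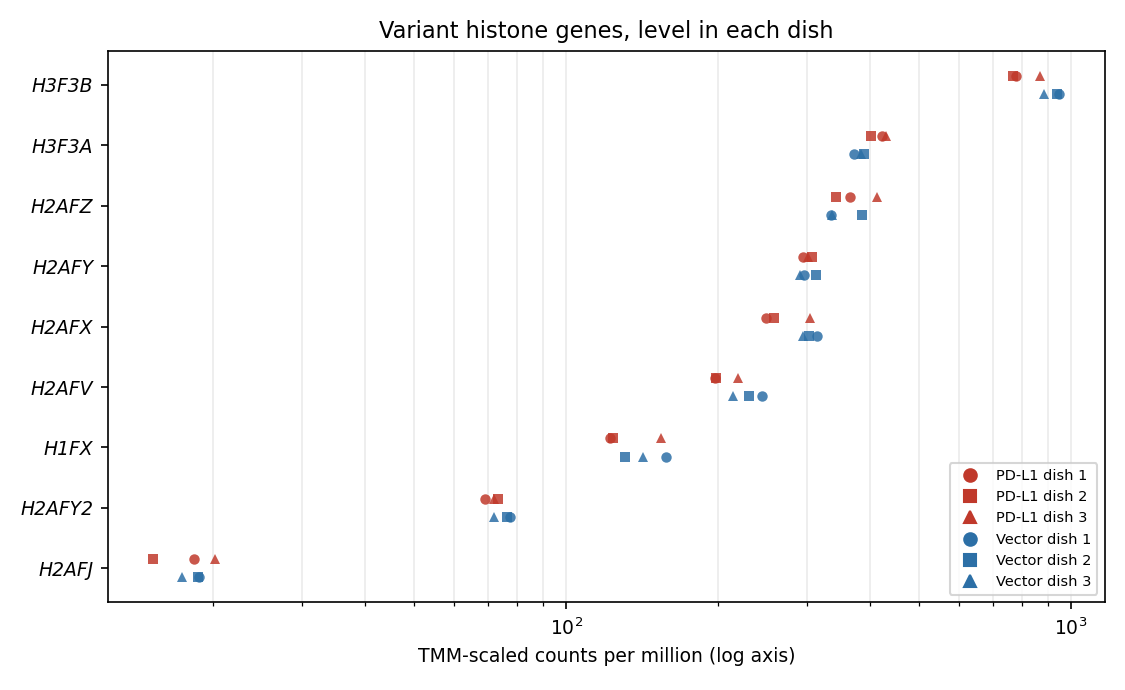
CPM (log axis) of 9 of the 10 variant histone genes, 1 point per dish, PD-L1 in red and Vector in blue, the symbol giving the dish number. H3F3B is the only gene with all PD-L1 dishes below all Vector dishes and H3F3A the only one with all above; PD-L1 dish 3 is a triangle and lies to the right of the other PD-L1 dishes in 7 of the 9 genes.

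Against this spread, no histone gene passed the test between the lines. The edgeR quasi-likelihood test with Benjamini-Hochberg adjustment covered 15818 genes, of which 8.75% were called at an adjusted p under 0.05. Among them were 26 histone genes, 16 clustered (those with enough reads) and all 10 variant genes, and 0 were called in either direction. DESeq2 and limma-voom also called 0. At an unadjusted p under 0.05 there were 4 of 26 in edgeR, 2 in DESeq2 and 4 in limma-voom, where edgeR had 23.6% of all tested genes. The CPM ranges of the groups did not overlap for 5 of the 26, against 27.6% of all tested genes.

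The variant genes were measured closely enough to bound their changes. Log2 fold changes (PD-L1 minus Vector) ran from -0.20 to 0.13 with standard errors of 0.07 to 0.11, and every 95% interval lay between -0.37 and 0.28. Their median was -0.051, with 4 positive and 6 negative values, beside a median of 0.018 over all tested genes. H3F3B had the smallest adjusted p of the class, with a log2 fold change of -0.20 ± 0.08 (SE) and an edgeR adjusted p of 0.149. H3F3A had 0.13 ± 0.07 with an edgeR adjusted p of 0.289. H2AFX and H2AFV had -0.17 ± 0.08 and -0.16 ± 0.08. Correction for transcript length and GC content moved H3F3A to 0.05, H2AFX to -0.06 and H1FX from -0.11 to 0.0028, and left H3F3B at -0.16 and H2AFV at -0.19.

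Clustered genes were bounded less well. Their standard errors ran from 0.09 to 0.42, and the 95% interval stayed within 0.5 on either side of 0 for only 5 of the 16. The median log2 fold change was 0.010, with 9 positive and 7 negative values between -0.75 and 0.90. HIST1H2BK, with the most reads, had 0.03 ± 0.09 and an interval from -0.17 to 0.22. HIST1H1C had -0.02 ± 0.12 and HIST3H2A 0.01 ± 0.12. HIST1H2BN, with groups that did not overlap, had 0.50 ± 0.19 and an edgeR adjusted p of 0.135.

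**Figure D4:**
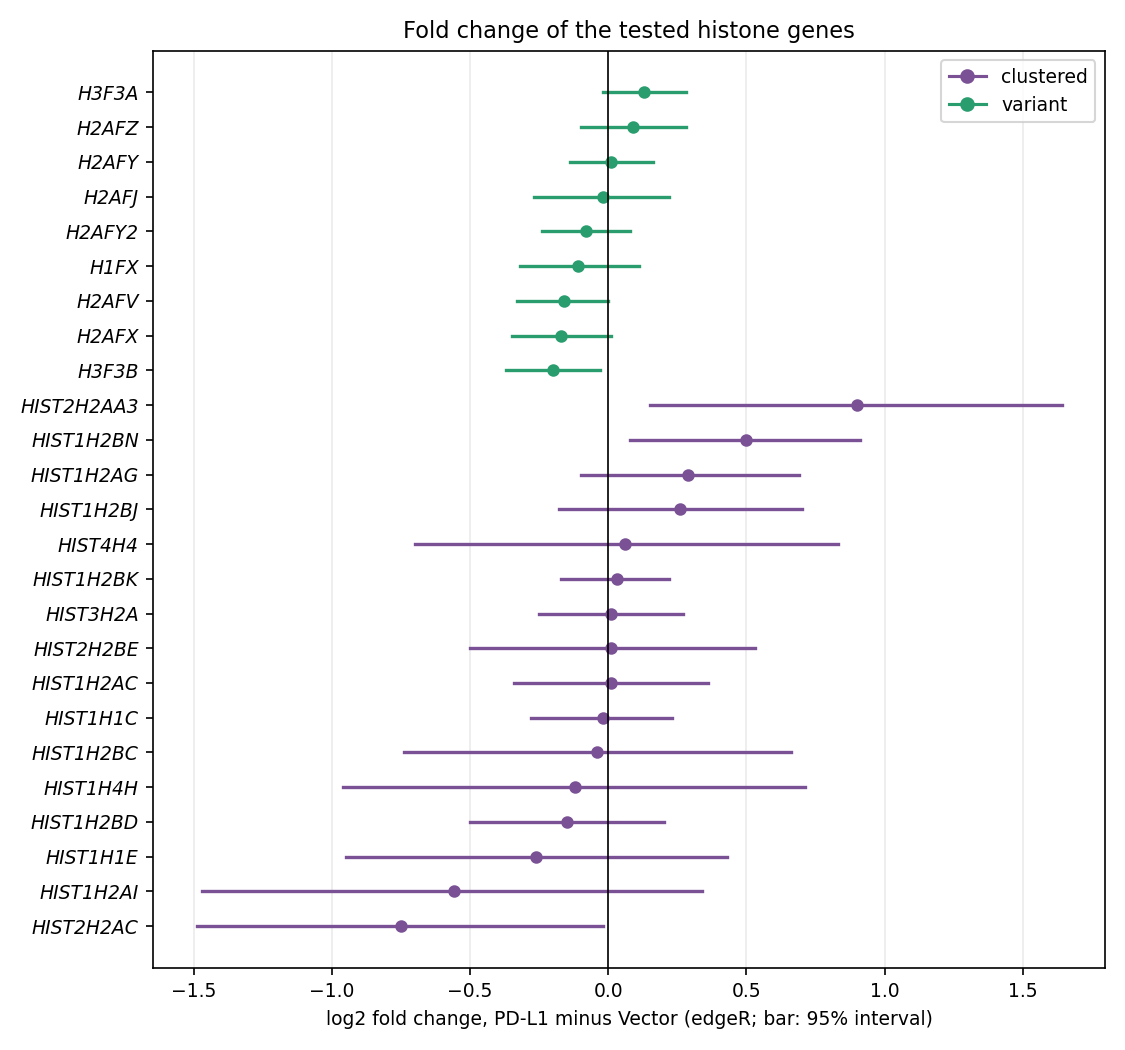
Log2 fold change, PD-L1 minus Vector, of 25 of the 26 tested histone genes (edgeR), each with its 95% interval, variant genes in green above and clustered genes in purple below. Intervals of the variant genes lie between -0.37 and 0.28, while those of the clustered genes reach -1.49 and 1.64.

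At the ends of the clustered range lay a pair of low-count H2A genes of chromosome 1, named after their values were seen. HIST2H2AA3 (ENSG00000203812) had 26, 20 and 12 reads in PD-L1 dishes 1 to 3 and 12, 12 and 10 reads in Vector dishes 1 to 3, which scale to 1.27, 1.23 and 0.642 CPM and 0.552, 0.587 and 0.538 CPM. Its log2 fold change was 0.90 ± 0.35 with an edgeR adjusted p of 0.131. HIST2H2AC (H2AC20, ENSG00000184260) had 16, 11 and 7 reads against 23, 17 and 23, with a log2 fold change of -0.75 ± 0.34 and an edgeR adjusted p of 0.198. Neither pair of groups overlapped, and the genes lay apart in opposite directions. None of the 50-base runs of HIST2H2AA3 is its own, since HIST2H2AA4 is a copy, so its count depends on how reads with several matches were treated.

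Leaving out PD-L1 dish 3 changed the calls. In that fit 21.6% of 16272 genes were called, and 5 of 27 tested histone genes were among them. HIST2H2AA3 was higher in PD-L1, with a log2 fold change of 1.15 ± 0.36 and an edgeR adjusted p of 0.0245. The other 4 were variant genes that were lower. For H2AFX the log2 fold change was -0.26 ± 0.06, with an edgeR adjusted p of 0.00502, and H3F3B had -0.26 ± 0.06 with an edgeR adjusted p of 0.00505. H2AFV and H1FX had -0.22 ± 0.07 and -0.23 ± 0.07 with edgeR adjusted p of 0.0247 and 0.0318. With an added correction for GC content and transcript length, chosen after the data were seen, 21.2% of genes and 3 histone genes were called: HIST2H2AA3, H3F3B and H2AFV. There H2AFX had a log2 fold change of -0.06 (edgeR adjusted p of 0.481) and H1FX -0.01 (0.928). In neither fit did the share of histone genes called exceed that of all genes. Leaving out any of the other 5 dishes gave 0 calls.

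The summed levels did not separate the lines. The clustered sum was 144 ± 8.43 CPM in the PD-L1 dishes and 141 ± 12.3 CPM in the Vector dishes (SD, n = 3 each), a 1.02-fold difference. Without HIST1H2BK it was 66 ± 4.61 and 64.7 ± 4.14 CPM. The variant sum was 2880 ± 173 and 3000 ± 72.5 CPM, 1.04-fold lower in PD-L1. The differences of the clustered sums were smaller than the SD of either group, while that of the variant sums was smaller than the PD-L1 SD and larger than the Vector SD, with PD-L1 dish 3 above all Vector dishes. Leaving out 1 dish moved the log2 ratio of the clustered sums between -0.04 and 0.09 and that of the variant sums between -0.11 and -0.03. The clustered sum as a percent of the variant sum was 5.50, 4.96 and 4.62 in PD-L1 dishes 1 to 3 and 4.21, 5.03 and 4.91 in Vector dishes 1 to 3, and the groups overlapped. Its log2 ratio between the lines was 0.09 with all dishes, 0.15 without PD-L1 dish 3 and 0.02 without dish 1 of either group.

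**Figure D5:**
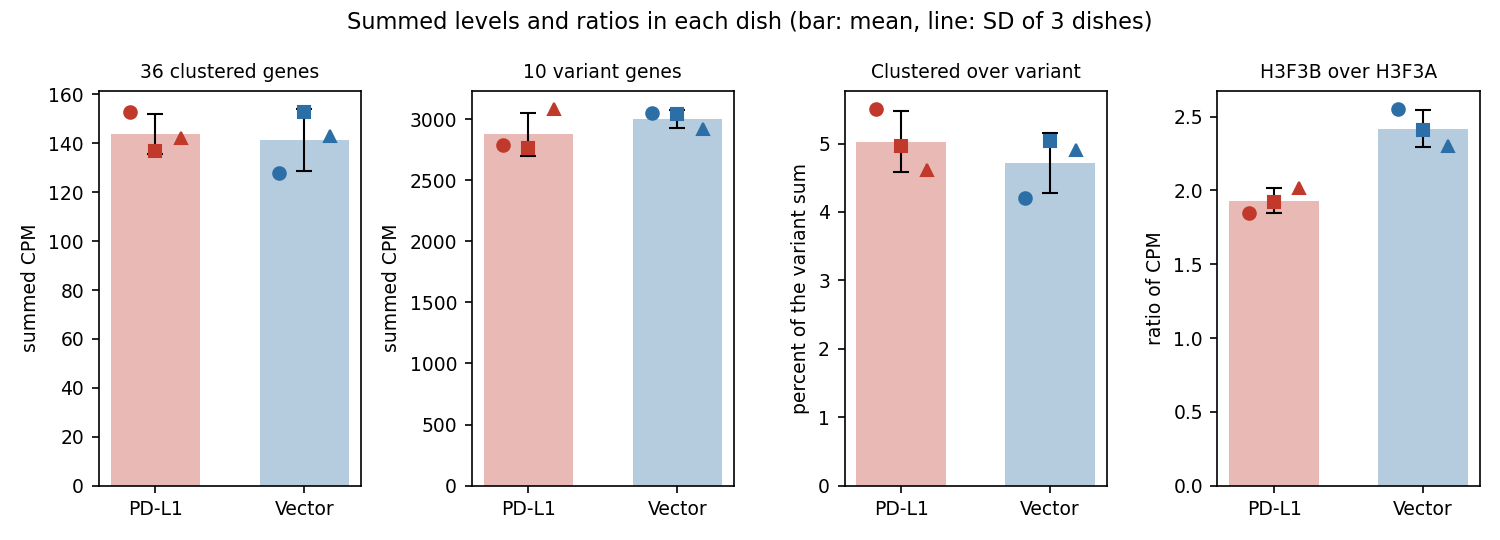
Summed CPM of the clustered and of the variant histone genes, the clustered sum as a percent of the variant sum, and the ratio of H3F3B to H3F3A, with 1 point per dish (the symbol gives the dish number), bars for the mean and lines for the SD of 3 dishes. The groups overlap in the first 3 panels; in the last, PD-L1 dishes lie at 1.85 to 2.02 and Vector dishes at 2.30 to 2.55.

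None of the genes that make and finish histone mRNA passed the same test. Of 16 genes for histone mRNA transcription and 3-prime end processing, 0 were called by edgeR (3 at an unadjusted p under 0.05), beside 8.75% of all tested genes called and 23.6% at that unadjusted p, with a median log2 fold change of -0.01. SLBP, the stem-loop binding protein, held 174, 156 and 172 CPM in the PD-L1 dishes and 162, 162 and 163 CPM in the Vector dishes. NPAT, the coactivator of clustered histone genes, held 31.4, 30.9 and 26.1 CPM against 25.8, 29 and 27.7 CPM. CASP8AP2, a component of the histone locus body, held 52.7, 51.3 and 36.9 CPM against 34.5, 40.7 and 40.9 CPM. PD-L1 dish 3 of CASP8AP2 lay inside the Vector range and the other PD-L1 dishes above it. Its log2 fold change was 0.28 ± 0.12 with all dishes (edgeR adjusted p of 0.186) and 0.43 without dish 3 (edgeR adjusted p of 9.01e-04).

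Of 26 tested histone chaperone and deposition genes, 1 was called lower and 0 higher, beside 8.75% of all tested genes. It was HJURP, the chaperone of the centromeric H3 variant, at 44.2, 47.3 and 52.1 CPM in the PD-L1 dishes and 61.1, 61.8 and 57.9 CPM in the Vector dishes. Its log2 fold change was -0.33 ± 0.08 with an edgeR adjusted p of 0.0252, and the call was lost without dish 1 or dish 2 of either group (edgeR adjusted p of 0.0777 to 0.144). Of 24 S-phase genes, 1 was called higher and 1 lower, against the same 8.75%, with a list median of -0.03. TK1, thymidine kinase, fell from 178, 175 and 161 CPM in Vector to 111, 114 and 143 CPM in PD-L1 dishes, a log2 fold change of -0.48 ± 0.09 and an edgeR adjusted p of 0.0063. The TK1 call held without each dish in turn.

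Transcripts that lack a poly-A tail were listed as a check of the libraries. Of 15 such RNAs listed, 8 matched the table and 7 of these had at most 34 reads over all dishes. RN7SK, RN7SL1, RN7SL2 and RPPH1 were among those without a match, so the list does not show how much such RNA passed the selection. MALAT1, a long nuclear RNA with a triple-helix end, was the only 1 tested and held 60.5, 59.5 and 44.2 CPM in the PD-L1 dishes and 34.3, 40.5 and 43.3 CPM in the Vector dishes. It was called higher, with a log2 fold change of 0.48 ± 0.12 and an edgeR adjusted p of 0.0263. It lost the call without dish 1 or dish 2 of either group, with edgeR adjusted p of 0.0701 to 0.155. The clustered histone sum was highest in PD-L1 dish 1 and Vector dish 2, at 153 CPM each, and these dishes held 60.5 and 40.5 CPM of MALAT1. The part of poly-A selection in the histone values was not tested.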

How the data were processed

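RNA of 6 dishes was selected on poly-T beads and made into libraries with an unstranded kit (NEBNext Ultra), per the labels' protocols. Per the submitters' processing notes, the build was hg19 and the software HTSeq 0.6.0, STAR 2.5.1b and CASAVA 1.8. Annotation, strand setting and treatment of reads with several matches were not given in the sources. The authors deposited raw counts per gene for each dish. The authors also deposited normalized values on a signal scale, which times 1 factor per dish return the raw counts (within 4.0e-05), and used here only for these factors.

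The members and lists were chosen with earlier results of these data known. Members were matched by Ensembl identifier through GENCODE 29. The 5435 identifiers without a symbol (0.617% to 0.753% of reads) stayed in the fits. All 6 dishes were fitted in R 4.3.3 with edgeR 4.0.16 (filterByExpr, TMM, robust quasi-likelihood test, Benjamini-Hochberg adjusted p under 0.05), after a test on simulated data. Standard errors are the size of the log2 fold change over the root of the F statistic. Named are the variant genes, the 8 clustered genes of highest mean CPM, 8 known to give polyadenylated transcripts, called genes of the lists, and SLBP, NPAT, CASP8AP2 and CD274. Sequences came from GENCODE 29 and RefSeq; coordinates are of the RefSeq build, not hg19. Alternatives were other scalings, DESeq2 1.42.0, limma-voom (limma 3.58.1), other filters, a replicate block, an offset for GC content and length, and leaving out each dish. Plots were made with matplotlib 3.10.9. For 2 genes no single values are reported; both remain in the fits, sums and counts.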

Additional observations from a re-analysis of the deposited data

How the results depend on the processing

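The counts of called clustered and variant histone genes were 0 in each direction under other scalings (relative log expression, upper quartile, the authors' size factors), DESeq2, limma-voom, a mean of 5 CPM or more as filter, no low-count filter, the offset for GC content and length, and an FDR of 0.01. Leaving out 1 dish gave 0 to 1 clustered gene higher and 0 to 4 variant genes lower, the upper values without PD-L1 dish 3. With the offset and without that dish, an alternative chosen after the data were seen, 1 clustered gene was higher and 2 variant genes lower. The called genes of the related lists, 4 in all, were 7 with the offset, 1 to 19 when 1 dish was left out and 17 with the offset and without PD-L1 dish 3, of 66 tested. Over all genes the calls moved too: 1384 of 15818 with all dishes, 2064 with the offset, 21.6% without PD-L1 dish 3 and 21.2% with the offset and without it. The cause was not tested.

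The replicate numbers did not pair the dishes: same-numbered dishes had correlations of -0.212, -0.051 and -0.192. With the replicate number as a block, 0 histone genes and 3 genes of the related lists were called, over all genes 1447 against 1384.

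Of 485 single-gene comparisons, 38 changed sign, all in histone genes with log2 fold changes of -0.11 to 0.06 with all dishes, not called there or where the sign changed. Upper-quartile scaling gave 0.01 for H2AFJ and 0.01 for HIST1H1C. Without the low-count filter H2AFY, HIST1H2AC, HIST2H2BE and HIST3H2A each had -0.01. The offset gave 0.0028 for H1FX, -0.09 for HIST1H2AC and -0.01 for HIST2H2BE, and with the block 0.0030, -0.09 and -0.0038. The offset without PD-L1 dish 3 gave -0.01 for H2AFY, -0.08 for HIST1H2AC and -0.03 for HIST3H2A. When 1 dish was left out, H2AFJ ran from -0.12 to 0.08, H2AFY ran from -0.03 to 0.04, HIST1H1C ran from -0.16 to 0.07, HIST1H2AC ran from -0.10 to 0.11, HIST1H2BC ran from -0.39 to 0.19, HIST1H2BK ran from -0.06 to 0.09, HIST2H2BE ran from -0.16 to 0.24, HIST3H2A ran from -0.09 to 0.11 and HIST4H4 ran from -0.13 to 0.40.

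Depth limits the clustered class: 20 of 36 matched genes had too few reads to test, and the 95% intervals of HIST1H2AI, HIST2H2AA3 and HIST2H2AC reached past 1 log2 unit from 0. Library totals in place of TMM gave log2 ratios of 0.08, -0.01 and 0.09 for the clustered sum, the variant sum and their ratio.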

Other observations

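Of the 20 matched clustered genes with too few reads to test, a pair had groups that did not overlap. Over all tested genes the share was 27.6%, and none was computed for genes with so few reads. Both genes are named here after their values were seen. HIST1H4C, an H4 gene, had 2, 3 and 2 reads in PD-L1 dishes 1 to 3 and 9, 5 and 6 reads in Vector dishes 1 to 3. HIST1H3J, an H3 gene, had 6, 4 and 5 reads against 3, 1 and 1. In the fit without a low-count filter their log2 fold changes were -1.35 ± 0.72 and 1.63 ± 0.84, with edgeR adjusted p of 0.399 and 0.366. HIST1H3J shares an exonic stretch with HIST1H2AM on the same strand, so its reads may belong to either gene.

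HIST2H2BC, an H2B pseudogene of the count table that the member rule leaves out, had more reads than all but 3 of the tested clustered genes, 1017 over the 6 dishes. It held 11.2, 12.3 and 7.39 CPM in PD-L1 dishes 1 to 3 and 7.36, 7.63 and 7.21 CPM in Vector dishes 1 to 3. PD-L1 dish 3 lay inside the Vector range and the other PD-L1 dishes above it. The log2 fold change was 0.47 ± 0.17 with an edgeR adjusted p of 0.0991.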
